A study of Rattus norvegicus with 6 samples.

Results

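Genes for neurotransmitter receptors were examined in the mRNA of cultured neural progenitors of the rat. They were taken by the pattern of their names (Gria, Grik, Grin, Grm, Gabr, Gabbr, Glra, Glrb, Chrn, Chrm, Adra, Adrb, Htr and Drd), which picked 101 of the 17337 gene names in the expression tables. Of these, 99 encode receptors or receptor subunits. The other two, Adrbk1 and Adrbk2, encode the kinases GRK2 and GRK3, which phosphorylate G protein-coupled receptors, and were kept out of the receptor counts.

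The study mapped transcription start sites in these cells with Start-seq, which sequences short capped RNAs at paused RNA polymerase II, and measured polyA-selected mRNA in the same cells. The cells came from the cortices of Sprague Dawley rat embryos of either sex at embryonic day 14, were grown as untreated cultures with bFGF and EGF, and were collected after their second passage. There was 1 condition, with biological replicates A and B. By their labels, 2 mRNA libraries came from each of these 2 cultures (A1 and A2 from A, B1 and B2 from B). The libraries of a pair were taken as technical repeats. Start-seq was run on 2 samples, not analysed here.

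Receptors for neurotransmitters fall into 2 broad kinds. Ligand-gated channels are assembled from several subunits around a pore and include the AMPA, kainate and NMDA receptors for glutamate, the GABA-A and glycine receptors, the nicotinic receptors for acetylcholine and the serotonin receptor built from Htr3 subunits. G protein-coupled receptors signal through second messengers and include the metabotropic glutamate, GABA-B, muscarinic, adrenergic, dopamine and remaining serotonin receptors. In the embryonic cortex several of these receptors are known to be present on dividing progenitors before synapses form.

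Levels of mRNA are in FPKM, which scales fragments to transcript length and library depth, so that genes can be compared with each other. Technical libraries were averaged within a replicate, and each mean ± SD is over replicates A and B (n = 2). The coverage behind 1 FPKM, a measure of depth, was 22.7 to 24.4 in A1, A2 and B1 and 6.83 in B2. A coverage of 1 therefore lay at 0.0410 to 0.0440 FPKM in A1, A2 and B1 and at 0.146 FPKM in B2, and members reached it in 64 cases in each of the deeper libraries and in 45 cases in B2. All 10 progenitor markers examined were at 1 FPKM or more, among them Fabp7 at 11840 ± 8256 FPKM and Vim at 3291 ± 374 FPKM, as were 8 of 11 neuronal markers, led by Tubb3 at 118 ± 9.88 FPKM and Gap43 at 53.0 to 85.6 FPKM in the single libraries. Astrocyte markers were also present in 7 of 7 cases, with Gfap at 571 ± 127 FPKM, and mesenchymal markers in 11 of 12, with Tagln at 868 ± 175 FPKM and Col3a1 at 486 ± 399 FPKM. In bulk RNA, fewer cells of a type and less RNA per cell cannot be told apart.

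Most receptor genes had little mRNA, and a few had a great deal. A mean of at least 1 FPKM was reached by 27 of the 99 receptor genes (27.3%), compared with 10481 of all 17337 gene names (60.5%). Only 5 receptor genes reached 10 FPKM and 1 reached 100 FPKM. A further 23 genes lay between 0.1 and 1 FPKM and 45 lay above 0 but below 0.1 FPKM. The median over the receptor genes was 0.106 FPKM, against 3.83 FPKM over all gene names. Listed at 0 in every library were 4 receptor genes (4.04%), Drd5, Chrna6, Glra3 and Htr5a, compared with 2306 of all names (13.3%). The gene just above 1 FPKM was Chrnb2 at 1.01 ± 0.353 FPKM, and the one just below was Grin2b at 0.752 ± 0.0558 FPKM.

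The families differed in how many of their genes reached 1 FPKM. These were 4 of 4 AMPA genes, 3 of 5 kainate genes, 3 of 7 NMDA genes and 1 of 8 metabotropic glutamate genes. For the inhibitory transmitters they were 4 of 19 GABA-A genes, 2 of 2 GABA-B genes and 1 of 5 glycine receptor genes. Among the other families they were 4 of 16 nicotinic, 1 of 5 muscarinic, 2 of 6 alpha-adrenergic, 1 of 3 beta-adrenergic, 1 of 14 serotonin and 0 of 5 dopamine receptor genes.

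**Figure D1:**
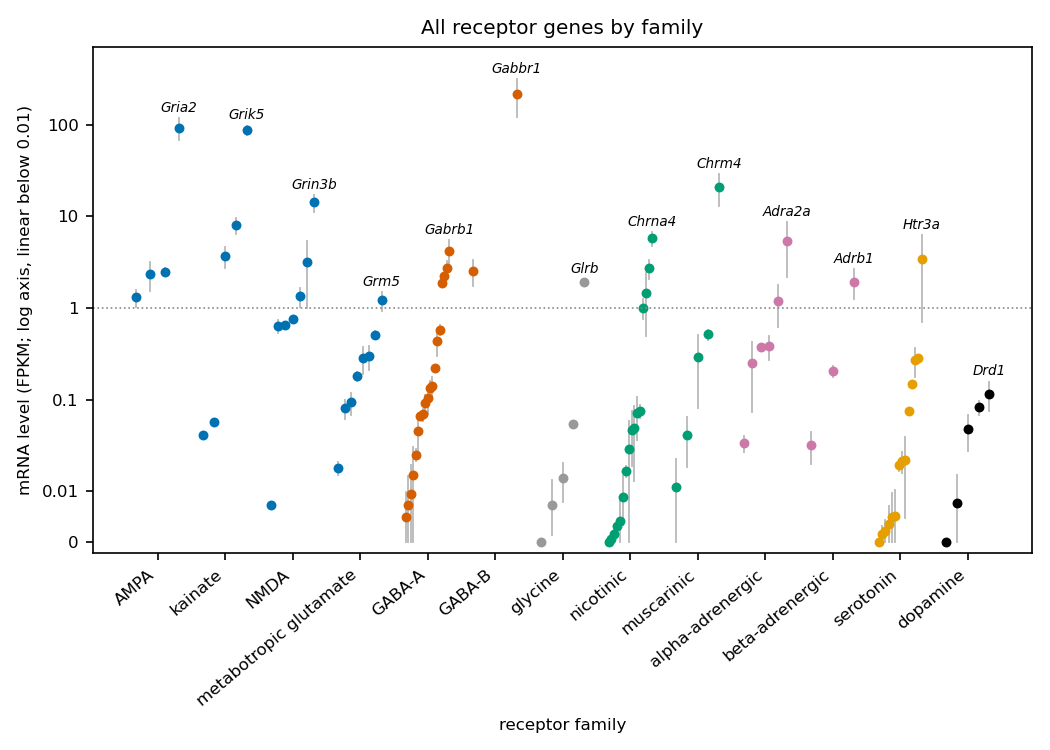
Mean mRNA level of each of the 99 receptor genes, one point per gene, by receptor family (x axis) and in FPKM (y axis, log scale that is linear below 0.01). Grey lines join replicates A and B, the dotted line marks 1 FPKM, and the highest gene of each family is named. Single genes such as Gabbr1 (217 FPKM), Gria2 (91.6 FPKM) and Grik5 (87.2 FPKM) stand far above the rest of their families.

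The summed FPKM of the receptor genes was 672 and 627 in the libraries of A and 371 and 340 in those of B, a mean of 502 ± 208. Gabbr1, Gria2 and Grik5 together made up 81.6% and 80.5% of this sum in A1 and A2 and 74.2% and 75.5% in B1 and B2. By transmitter, glutamate receptor genes held 45.4% ± 7.57 and GABA receptor genes 44.4% ± 9.30 of the sum. These shares were in opposite order in the replicates: GABA held 52.2% and 49.8% in A1 and A2 against 39.2% and 40.8% for glutamate, whereas in B1 and B2 GABA held 35.4% and 40.3% and glutamate 52.2% and 49.2%. Acetylcholine receptor genes followed with 6.52% ± 0.297, noradrenaline with 2.44% ± 2.36, serotonin with 0.758% ± 0.490, glycine with 0.432% ± 0.146 and dopamine with 0.0535% ± 0.0105. Here too the order depended on the replicate. In A1 and A2 serotonin held 1.02% and 1.19%, above noradrenaline with 0.692% and 0.849%. In B1 and B2 serotonin held 0.450% and 0.374%, below noradrenaline (4.42% and 3.81%) and glycine (0.463% and 0.607%).

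**Figure D2:**
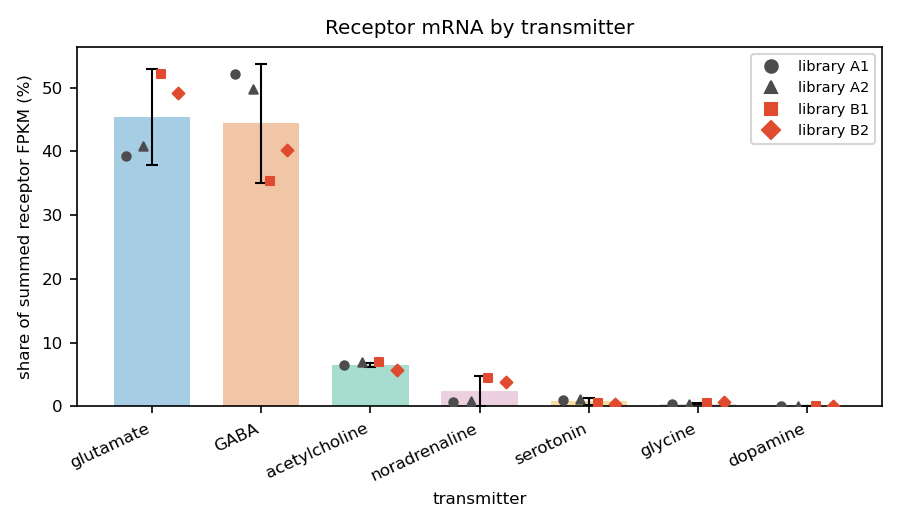
Share of the summed receptor FPKM (y axis, %) held by the receptor genes of each transmitter (x axis). Bars are the mean and error bars the SD over replicates A and B (n = 2), and symbols are the 4 libraries. Glutamate and GABA hold 45.4% and 44.4%, with GABA above glutamate in both libraries of A and below it in both libraries of B.

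In the GABA-B and kainate families, genes whose products assemble with each other stood at very unequal levels. The GABA-B receptor is an obligate pair of the subunit that binds GABA, encoded by Gabbr1, and the subunit that couples to the G protein, encoded by Gabbr2. Kainate receptors with the high-affinity subunits encoded by Grik4 and Grik5 need a partner encoded by Grik1, Grik2 or Grik3 to form a channel. The promoters of a high and a low member of both pairs are given so that they can be compared. They are the 250 bases before and the 50 bases after the RefSeq start of the gene, from build GRCr8, read 5′ to 3′ on the strand of the gene, with each CG step in capitals. They are promoters by annotation only. The study reported that, for most genes it examined, the Start-seq start was not within a few bases of the RefSeq start in rn6. Where transcription of the genes printed here starts in these cells was not tested. The intervals are chr20:1499187-1499486 for Gabbr1, chr5:66083646-66083945 for Gabbr2, chr1:89794860-89795159 for Grik5 and chr20:54415234-54415533 for Grik2, all on the minus strand.
Gabbr1: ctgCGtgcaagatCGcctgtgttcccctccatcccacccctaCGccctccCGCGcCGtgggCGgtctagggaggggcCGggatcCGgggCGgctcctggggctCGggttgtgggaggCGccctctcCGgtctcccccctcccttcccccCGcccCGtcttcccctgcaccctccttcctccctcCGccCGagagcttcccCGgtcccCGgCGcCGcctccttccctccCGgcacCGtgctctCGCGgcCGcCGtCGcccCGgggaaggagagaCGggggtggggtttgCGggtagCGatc
Gabbr2: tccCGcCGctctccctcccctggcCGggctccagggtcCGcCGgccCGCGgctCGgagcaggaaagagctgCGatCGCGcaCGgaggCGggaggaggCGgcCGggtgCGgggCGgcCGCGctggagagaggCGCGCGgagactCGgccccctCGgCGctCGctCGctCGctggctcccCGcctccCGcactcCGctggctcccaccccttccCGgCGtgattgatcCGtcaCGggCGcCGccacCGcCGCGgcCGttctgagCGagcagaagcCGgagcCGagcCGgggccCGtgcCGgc
Grik5: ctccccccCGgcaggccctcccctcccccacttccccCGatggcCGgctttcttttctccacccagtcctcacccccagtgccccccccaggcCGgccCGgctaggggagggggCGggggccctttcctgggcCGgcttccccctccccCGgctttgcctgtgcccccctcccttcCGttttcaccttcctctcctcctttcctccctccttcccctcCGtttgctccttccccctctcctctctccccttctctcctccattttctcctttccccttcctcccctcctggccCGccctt
Grik2: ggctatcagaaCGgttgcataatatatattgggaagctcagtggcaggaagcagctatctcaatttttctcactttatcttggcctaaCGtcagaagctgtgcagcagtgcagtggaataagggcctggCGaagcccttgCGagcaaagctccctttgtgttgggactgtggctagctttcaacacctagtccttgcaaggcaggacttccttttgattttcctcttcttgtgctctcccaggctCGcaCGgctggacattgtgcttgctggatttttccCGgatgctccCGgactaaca

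The 2 GABA-B promoters were both rich in CG steps, with 32 in Gabbr1 and 47 in Gabbr2, compared with a median of 7 over the 33469 promoters of the same length in the table. The kainate promoters held fewer than the GABA-B promoters, with 11 in Grik5 and 8 in Grik2, but were also above this median. None of the 4 held the exact letters TATAAA, a form of the TATA box, on either strand. None held TTCAGCACC, the left part of the RE1 element that binds the repressor REST, either. Other spellings of these elements were not searched, so their absence was not tested. Over all promoters 14.2% held TATAAA and 0.356% held TTCAGCACC. A promoter was matched for 72 of the 99 receptor genes (72.7%), which is under the 80% set as the minimum for a comparison over the whole group, so none is given.

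Gabbr1 had the most mRNA of all receptor genes. It lies on the minus strand of chromosome 20 of rn6 from 1955344 to 1984802, and its FPKM was 333 in A1, 293 in A2, then 118 in B1 and 125 in B2, a mean of 217 ± 135. Both libraries of A stood above both libraries of B. Its rank was 440 among the 17337 gene names. Gabbr2, on the minus strand of chromosome 5 from 62276100 to 62621737, was at 3.27, 3.32, 2.26 and 1.21 FPKM in the same order, a mean of 2.51 ± 1.10. Gabbr1 thus exceeded its obligate partner 52.3-fold to 103-fold in the single libraries and held 98.8% ± 0.264 of the family's FPKM. Their promoters, printed above, were both above the median of all promoters in CG steps, as were those of Grik5 and Grik2.

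Among glutamate receptor channels, Gria2 and Grik5 were of similar level. Gria2 encodes the GluA2 subunit, which, once its RNA is edited, makes AMPA receptors nearly impermeable to calcium. It lies on the minus strand of chromosome 2 from 179584306 to 179704629, and its FPKM was 113 and 120 in A and 79.0 and 54.9 in B (91.6 ± 34.9). Gria1, Gria3 and Gria4, for the other AMPA subunits, were at 2.34 ± 1.15, 2.49 ± 0.289 and 1.30 ± 0.402 FPKM. Gria2 held 93.5% ± 0.682 of the AMPA sum and exceeded the other three together 10.8-fold to 17.3-fold.

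Grik5 lies on the minus strand of chromosome 1 from 81885516 to 81946714, and its FPKM was 102 and 92.2 in A and 77.8 and 76.8 in B (87.2 ± 14.0). Grik4, the other high-affinity subunit, was at 6.48, 6.41, 12.4 and 6.56 FPKM, so that B1 stood apart from the remaining libraries. Of the genes for subunits that form channels by themselves, Grik2 was at 3.65 ± 1.29 FPKM, whereas Grik1 and Grik3 were at 0.0574 ± 0.00105 and 0.0416 ± 0.00422 FPKM. Grik4 and Grik5 together exceeded Grik1, Grik2 and Grik3 together 18.8-fold to 31.3-fold, and Grik5 alone held 88.0% ± 2.36 of the kainate sum.

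NMDA receptors require the GluN1 subunit, encoded by Grin1, which was low. Grin1 was at 0.716 and 0.610 FPKM in A and 0.689 and 0.561 FPKM in B (0.644 ± 0.0269), and its replicates overlapped. Subunits that bind glutamate are encoded by the Grin2 genes, of which Grin2c was at 3.18 ± 3.09, Grin2d at 1.34 ± 0.442 and Grin2b at 0.752 ± 0.0558 FPKM. Together the Grin2 genes exceeded Grin1 11.4-fold in A1, 10.2-fold in A2, 3.71-fold in B1 and 7.44-fold in B2.

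The highest gene of the NMDA family was Grin3b, which encodes the glycine-binding subunit GluN3B. Its FPKM was 19.5 and 14.6 in A and 9.67 and 12.7 in B (14.1 ± 4.15), and it held 68.7% ± 2.47 of the family's sum. Grin3b spans 12764993 to 12771310 on the plus strand of chromosome 7, wholly inside the span listed for Palm on the opposite strand, and shares 72 bp with Tmem259, also on the opposite strand. Palm was at 82.7 FPKM and Tmem259 at 160 FPKM. Whether the counting used strand is not given in the sources used here. Without strand, reads within Grin3b cannot be told from reads of Palm. For Tmem259 this holds only within the shared 72 bp. Grin3a, for the related subunit GluN3A, was at 0.632 ± 0.148 FPKM.

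The metabotropic glutamate receptors were low as a family. Grm5, which couples to phospholipase C and is a receptor of radial glia and astrocytes, was at 0.779 and 1.07 FPKM in A and 1.64 and 1.35 FPKM in B (1.21 ± 0.400), so that B was above A. Grm6, known best from the ON bipolar cells of the retina, was at 0.511 ± 0.0787 FPKM and Grm4 at 0.301 ± 0.125 FPKM. The other members were below these, down to Grm7 at 0.0179 ± 0.00415 FPKM.

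GABA-A receptors are pentamers of mostly alpha, beta and gamma subunits, and these classes were each represented by low but measurable genes. The 6 alpha genes summed to 5.54 ± 1.07 FPKM, the 3 beta genes to 4.77 ± 1.81 and the 3 gamma genes to 2.24 ± 0.143. The sum of the alpha genes was 1.04-fold that of the beta genes in A1 and in A2, 0.967-fold in B2 and 2.07-fold in B1, which stood apart. The rho genes summed to 0.165 ± 0.0361 FPKM and the delta, epsilon, pi and theta genes to 0.196 ± 0.0147 FPKM. The genes at 1 FPKM or more were Gabrb1 (4.15 ± 1.94), Gabra4 (2.73 ± 0.785), Gabra2 (2.21 ± 0.135) and Gabrg1 (1.88 ± 0.193).

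These 4 GABA-A genes are neighbours. Gabrb1, Gabra4, Gabra2 and Gabrg1 lie in a cluster on chromosome 14 between 38643383 and 40049342, and all of its 4 genes were at 1 FPKM or more. Gabre, Gabra3 and Gabrq on chromosome X reached at most 0.106 FPKM. The rho genes Gabrr2 and Gabrr1 on chromosome 5 reached at most 0.0251 FPKM. Every GABA-A gene that reached 1 FPKM was thus in the cluster on chromosome 14. Genes within a cluster are not independent of each other, and the pattern is given as a description. Receptor genes within 1 Mb of each other formed 13 clusters in all with 35 genes, and one of these joined Gria2 at 91.6 FPKM with Glrb at 1.93 FPKM on chromosome 2.

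Glrb, for the beta subunit through which the glycine receptor binds the scaffold gephyrin, was at 2.10 and 1.99 FPKM in A and 1.61 and 2.04 FPKM in B (1.93 ± 0.157). The genes for the alpha subunits, which bind glycine and can form channels by themselves, were far lower. Glra2, the usual fetal form, was at 0.0544 ± 0.00378, Glra4 at 0.0142 ± 0.00898 FPKM, and Glra3 was listed at 0. Glrb exceeded the alpha genes together 29.2-fold in A1, 20.0-fold in A2, 15.2-fold in B1 and 75.1-fold in B2. Both extremes were thus in replicate B. The alpha sum in B2 was 0.0271 FPKM, a level at which B2 had a coverage under 1.

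For acetylcholine, the muscarinic gene Chrm4 stood out. It encodes the M4 receptor, which inhibits adenylyl cyclase, spans 80833272 to 80841008 on the plus strand of chromosome 3, and was at 28.0 and 29.9 FPKM in A and 15.8 and 10.3 FPKM in B (21.0 ± 11.2). It held 94.7% ± 4.86 of the muscarinic sum. Chrm3 was at 0.515 ± 0.0920 FPKM and Chrm1 at 0.295 ± 0.302 FPKM. The gene for the growth factor midkine, Mdk, lies 264 bp from Chrm4 on the opposite strand and was at 1246 and 1404 FPKM in A and 1411 and 1695 FPKM in B, so that Mdk was higher in B while Chrm4 was higher in A. Dgkz, 2997 bp away on the opposite strand, was at 82.7 and 65.0 FPKM in A and 63.6 and 43.7 FPKM in B and so was higher in A, as Chrm4 was.

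Chrna4 and Chrnb2 encode the subunits of the main high-affinity nicotinic receptor of the brain. Chrna4 was at 7.13, 6.41, 5.94 and 3.63 FPKM in A1, A2, B1 and B2 (5.78 ± 1.40), and Chrnb2 at 1.29, 1.23, 0.527 and 0.992 FPKM. Chrna4 exceeded Chrnb2 3.66-fold to 11.3-fold and held 52.3% ± 6.36 of the nicotinic sum. Chrnb1 and Chrne, which encode subunits of the muscle receptor, were at 2.71 ± 0.869 and 1.44 ± 1.33 FPKM, while Chrna1, for the ligand-binding subunit of that receptor, was at 0.00899 ± 0.008 FPKM and Chrna7, for the homomeric alpha7 receptor, at 0.0467 ± 0.0392 FPKM. Of 5 skeletal muscle markers in the tables, 0 reached 1 FPKM. Chrne shares 956 bp with LOC687707 on the opposite strand, which was at 1.49 and 0.922 FPKM in A and 0.303 and 0.341 FPKM in B, and lies 429 bp from Mink1, also on the opposite strand, at 31.7 FPKM. Within these 956 bp, reads of Chrne and LOC687707 cannot be told apart without strand. The rest of Chrne, which spans 4320 bp, lies outside LOC687707. The neuronal cluster of Chrna5, Chrna3 and Chrnb4 on chromosome 8 reached at most 0.0759 FPKM.

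The adrenergic genes were led by Adra2a, for the alpha-2A receptor that inhibits adenylyl cyclase. Adra2a, which spans 274766283 to 274769083 on the plus strand of chromosome 1, was at 2.05 and 2.26 FPKM in A and 9.21 and 8.11 FPKM in B (5.41 ± 4.60). Both libraries of B stood above both of A. Adra2c was at 0.555, 0.683, 2.20 and 1.36 FPKM, and Adrb1, for the beta-1 receptor that stimulates adenylyl cyclase, at 1.17, 1.31, 3.66 and 1.61 FPKM. Both of them were higher in each library of B than in each of A. Adra1d was at 0.384 ± 0.161 and Adrb3 at 0.0321 ± 0.0171 FPKM.

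Of the serotonin receptor genes only Htr3a, for the channel subunit 5-HT3A, reached 1 FPKM. It was at 5.82 and 6.58 FPKM in A and 0.847 and 0.566 FPKM in B (3.45 ± 3.89). Its neighbour Htr3b, for the subunit that joins 5-HT3A in some receptors, was at 0.00160 ± 0.00226 FPKM. Htr6 was at 0.285 ± 0.00661 and Htr2b at 0.273 ± 0.136 FPKM. The dopamine receptor genes were the lowest family by summed FPKM, with Drd1 at 0.116 ± 0.0586, Drd2 at 0.0832 ± 0.0203 and Drd4 at 0.0483 ± 0.0291 FPKM, levels at which B2 had a coverage under 1.

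**Figure D3:**
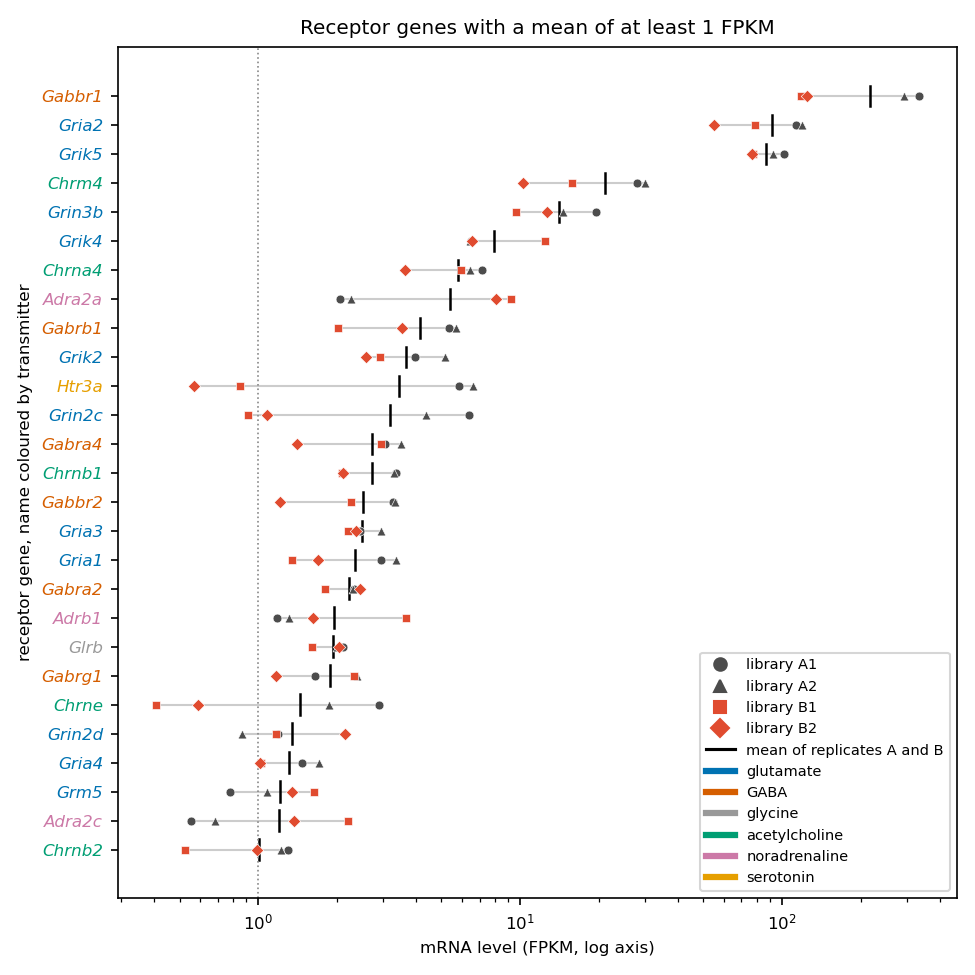
mRNA level (x axis, FPKM, log scale) of the 27 receptor genes that reached 1 FPKM, in order of the mean. Symbols are the 4 libraries, black bars the mean of replicates A and B, and the colour of a name gives the transmitter. Gabbr1, Gria2 and Grik5 form the top, and Htr3a, Grin2c, Chrne and Adra2a spread widely because A and B differ.

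Neighbours in this order of the 27 genes mostly did not differ beyond their spread. Of the 26 neighbouring pairs, 3 kept the same order with no overlap between replicate means (Gabbr1 above Gria2, Grik5 above Chrm4 and Grin3b above Grik4), and in only 1 of them, Grik5 above Chrm4, did every library of the higher gene exceed every library of the lower. Genes at 1 FPKM or more had a median span of 61.2 kb and those below it 28.8 kb, with ranges that overlapped (1.40 to 726 kb and 1.13 to 924 kb).

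Replicates A and B are cultures of the same condition and were compared to show the spread of the levels. A gene was counted as differing where its mean was at least 1 FPKM, the replicate means were at least 1 apart on the log2(FPKM + 1) scale, on which differences of low genes come out too small, and the libraries of A and B did not overlap. No p-value was computed, because technical libraries of a culture are not independent. Of the 27 receptor genes, 6 differed (22.2%), compared with 650 of 10481 gene names (6.2%). Higher in A were 5 of them, against 1.42% of all names, and higher in B was 1, against 4.78% of all names. Htr3a, Grin2c and Chrne reached the mean of 1 FPKM only through A, as their means in B were 0.707, 0.994 and 0.497 FPKM, so the 22.2% is a description and not support for a difference from other genes. With no filter on low values, 6 of 99 receptor genes (6.06%) and 660 of 17337 names (3.81%) differed. Of the 21 receptor genes at 1 FPKM or more in both replicates, 3 differed (14.3%), Gabbr1, Chrm4 and Adra2a, against 566 of 10132 names (5.59%). With a filter of 0.1 FPKM and a pseudocount of 0.1, 11 of 50 receptor genes differed, against 10.4% of all names, and at a log2 difference of 0.58, 12 of 27 differed, against 16.5%. Htr3a, Grin2c and Chrne were again among those counted. Chrm1 and Adra1a passed 0.1 FPKM only through B, as their means in A were 0.0812 and 0.0733 FPKM. These counts, like the one without B2 that follows, are therefore also a description. Without the shallow library B2, 7 of 26 receptor genes differed, against 5.48% of all names, and 5 of them were shared: Chrm4 was no longer counted, and Adrb1 and Gabrb1 were.

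The 5 genes higher in A were Htr3a, Grin2c, Gabbr1, Chrne and Chrm4. Htr3a was 8.77-fold higher in A, a difference of -2.08 (B minus A) on the log2(FPKM + 1) scale. Grin2c, whose product GluN2C is typical of glia and the cerebellum in the adult, was at 6.37 and 4.36 FPKM in A and 0.909 and 1.08 FPKM in B, 5.40-fold higher in A. Chrne was at 2.89 and 1.87 FPKM in A and 0.406 and 0.589 FPKM in B, 4.78-fold higher in A, and the overlapping LOC687707 on the opposite strand was higher in A too. Gabbr1 was 2.58-fold higher in A, and Chrm4 differed by -1.09 on the log2 scale. The gene higher in B was Adra2a, 4.02-fold or 1.61 on the log2 scale.

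By transmitter, all 6 GABA and all 5 acetylcholine receptor genes at 1 FPKM or more were higher in A by their replicate means, and so were 8 of 11 glutamate genes, whereas all 3 noradrenaline receptor genes were higher in B. In all, 21 of the 27 genes were higher in A, against 53.2% of all names at 1 FPKM or more. In 23 of the 27 genes the libraries of A and B did not overlap, 18 higher in A and 5 in B, compared with 60.1% of all names, 32% higher in A and 28.1% in B. The median difference was -0.43 on the log2(FPKM + 1) scale, against -0.03. Of the 27, 6 reached 1 FPKM through a single replicate, Htr3a, Grin2c, Chrne and Chrnb2 through A and Adra2c and Grm5 through B, and these counts are therefore a description only. Among the remaining 21, 17 were higher in A, against 53.4% of all names at 1 FPKM or more in both replicates.

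Markers of other cells differed between the same replicates. The 12 mesenchymal markers were all higher in B, 9 of them counted as differing, and their summed FPKM was 1360 and 1442 in A against 3100 and 4728 in B. Without B2, 8 of them were. Of the 10 progenitor markers, 6 were higher in A, 5 of them without overlap of the libraries, and 4 were higher in B, 0 of them without overlap, with Fabp7 and Hes5 counted as higher in A. Fabp7 made up most of their summed FPKM, which without it was 4166 and 4506 in A and 3550 and 5339 in B. Of the 11 neuronal markers 8 were higher in A, 6 of them without overlap, and 3 in B, 1 of them without overlap, beside the 32% and 28.1% of all names given above. An example is Syt1 at 2.37 and 2.47 FPKM in A and 1.13 and 1.07 FPKM in B. None of the neuronal markers was counted as differing with or without B2, and their summed FPKM was 229 and 258 in A and 199 and 251 in B. Of the oligodendrocyte lineage, Pdgfra and Olig1 were counted as higher in B, with Pdgfra at 9.50 and 9.09 FPKM in A and 59.5 and 59.4 FPKM in B. Among astrocyte markers S100b was counted as higher in A and Gjb6 as higher in B, where it was at 0.901 FPKM in B1 and 6.20 FPKM in B2, against 0.553 and 0.577 FPKM in A. Neither was counted without B2. Endothelial markers reached 1 FPKM in 0 of 6 cases, and 5 of the 6 were higher in B without overlap. Microglial markers reached it in 1 of 6, Cd68 at 3.82 ± 1.30 FPKM, which was higher in A without overlap, whereas the other 5 were higher in B, 3 of them without overlap. Libraries B1 and B2 were far apart for some markers. Ptgds was at 8.18 FPKM in B1 and 292 FPKM in B2, against 3.86 and 5.22 FPKM in A. Foxc1 was at 29.4 FPKM in B1 and 115 FPKM in B2, against 14.2 and 14.1 FPKM in A. Others were close within B, such as Dcn at 207 and 217 FPKM. The cause of this spread within B was not tested. The part of the differences between A and B in those of the receptor genes was not tested either.

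**Figure D4:**
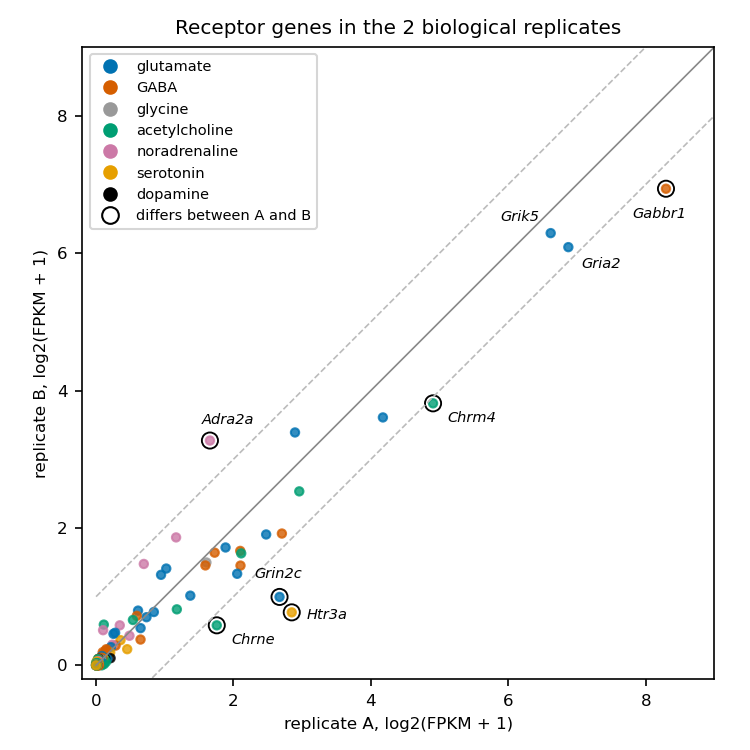
Receptor genes in replicate A (x axis) and replicate B (y axis), both as log2(FPKM + 1) with technical libraries averaged, coloured by transmitter. The solid line is equality, dashed lines mark a difference of 1, and circles mark the 6 genes counted as differing. Gabbr1, Chrm4, Htr3a, Grin2c and Chrne lie on the side of A, and Adra2a on the side of B.

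Genes whose products accompany the receptors were examined next. Of 31 auxiliary and scaffold genes of glutamate receptors in the tables, 22 were at 1 FPKM or more and 0 differed between A and B. With 6.2% of all names differing, a count of 0 in a list of this size, or in the 3 lists that follow, does not set it apart. The highest were Cnih2, which promotes the export and slows the closing of AMPA receptors (134 ± 3.74 FPKM), Homer3, a scaffold of metabotropic receptors (58.4 ± 4.13 FPKM), and Cacng4, a transmembrane AMPA receptor regulatory protein (42.8 ± 13.6 FPKM). Cnih2 was therefore above Gria2 in every library.

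Of 15 partner genes of GABA and glycine receptors, 13 were at 1 FPKM or more and 0 differed. They were led by Gabarap (370 ± 41.5 FPKM), Gabarapl1 (62.6 ± 3.27 FPKM) and Trak1 (46.5 ± 12.4 FPKM). Of 12 nicotinic receptor chaperone and anchoring genes, 8 reached 1 FPKM and 0 differed, led by Agrn, for the synaptic organiser agrin (122 ± 44.6 FPKM), Ly6h (73.6 ± 12.2 FPKM) and Lrp4, the receptor of agrin (55.1 ± 9.79 FPKM).

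Downstream of the G protein-coupled receptors, 28 of 30 genes for G proteins, adenylyl cyclases, phospholipases, kinases, arrestins and RGS proteins were at 1 FPKM or more, and 0 differed between A and B. Without B2, 1 gene each of the nicotinic list (Rapsn) and of this list (Gnao1) was counted as higher in A. Gnas, for the stimulatory G protein, was at 1421 ± 340 FPKM, Gnai2, for an inhibitory one, at 565 ± 27.1 FPKM, and Gnb1 at 167 ± 29.7 FPKM. The receptor kinase genes that the name pattern took were at 27.8 ± 0.620 FPKM for Adrbk1 and 3.56 ± 1.47 FPKM for Adrbk2.

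Genes that make, load or degrade the transmitters were the last group. Of 26, 13 were at 1 FPKM or more. Glul, which makes glutamine from glutamate, was at 78.6 and 86.2 FPKM in A and 182 and 225 FPKM in B and was counted as higher in B. Maob, a monoamine oxidase, was at 8.91 and 8.80 FPKM in A and 3.60 and 2.56 FPKM in B and was counted as higher in A. Shmt2, for a glycine-forming enzyme, was at 56.4 ± 5.97 FPKM.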

How the data were processed

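PolyA-selected mRNA was sequenced by the study from 2 biological replicates with 2 libraries each, taken as technical repeats from their labels (NEBNext Ultra II). FPKM per gene was used as deposited by the authors. The TPM values and the coverage, which is the mean read depth over a gene, were also deposited by the authors, and both served in alternatives and in the reading of depth. The authors' processing notes name rn6, HISAT, STAR, StringTie and cutadapt. The methods of the study name Rsubread and DESeq2 for the FPKM of the authors, and the deposited tables have the layout of StringTie, so how reads of overlapping genes were assigned is not known here. Versions are not given in the sources used here. Read totals were not used here, and no counting interval is given.

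Values of repeated gene names were added up, averaged over technical libraries, and compared between replicates on the log2 scale with a pseudocount of 1. The design of 1 condition with 2 replicates allowed no test between groups. Marker sums without their highest gene, marker and pathway genes without B2, and a filter on both replicates were added after seeing the data. The rule for differing genes was also run on simulated data, but that run is not reported here and no result rests on it. Members, lists and the rule for named genes were chosen with earlier results of these data known. The named genes are the members at 1 FPKM or more, the 3 highest of each family, members that differ or have a library apart, essential subunits, clusters, and the leading genes of each list, and some of them are not reported here. Overlaps and distances come from the positions in the tables (rn6), promoters from RefSeq (GRCr8). Python 3.11.15, pandas 2.3.3, numpy 2.4.6 and matplotlib 3.10.9 were used.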

Additional observations from a re-analysis of the deposited data

Results flagged for a closer look

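Of 51 values examined (50 receptor genes at 0.1 FPKM or more and their sum), 4 genes had 1 library far from the other three, by Dixon's criterion for 4 values. Chance alone gives about 1 in 20, and since the libraries form technical pairs the criterion only points to values worth a second look. Grik4 was at 12.4 FPKM in B1 against 6.41 to 6.56 FPKM in the others. Adra1b was at 0.289 FPKM in B1 against 0.396 to 0.407 FPKM. In the shallow library B2, Grin3a was at 0.905 FPKM against 0.504 to 0.569 FPKM, and Chrm1 at 0.848 FPKM against 0.0743 to 0.168 FPKM.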

How the results depend on the processing

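Leaving out replicate A or B cannot move a mean or share of 2 replicates by more than their SD, so these 94 alternatives say nothing about stability. Of the other 143 for 50 results, 108 stayed within that SD, or within 1.5 times for a count. At a threshold of 0.1 FPKM, 50 receptor genes in place of 27 were detected. With replicate A or B left out, the number listed at 0 rose from 4 to between 7 and 16. With a filter of 0.1 FPKM and a pseudocount of 0.1, 11 of 50 genes differed between A and B (10.4% of all names), and at a log2 difference of 0.58, 12 of 27 differed (16.5% of all names), in place of 6. All 6 were among them under both settings, which follows from the rule, because each setting only loosens it. With at least 1 FPKM asked of both replicates 3 of 21 differed (5.59% of all names), and TPM, upper quartile scaling and no filter each gave the same 6. In TPM the receptor sum was 848. Without B2, the share of acetylcholine was 6.87% and of dopamine 0.0412%, and the share of Gria2 among AMPA genes was 94.3% and of Glrb among glycine receptor genes 94.9%. Of 135 alternatives for single genes 24 moved, 22 of them by the change of unit to TPM. No paired analysis was possible because the replicate letters are shared only with Start-seq samples, which were not analysed here, and no result comes from a test. Levels below 0.146 FPKM lay under a coverage of 1 in B2.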

Other observations

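Some genes of the synthesis and loading list that were not named above differed in level between transmitters. Gad1 and Gad2, for the enzymes that make GABA, were at 5.67 ± 0.701 and 7.39 ± 2.88 FPKM, and Slc32a1, for the vesicular GABA transporter, at 3.38 ± 0.229 FPKM. The vesicular glutamate transporter genes Slc17a6, Slc17a7 and Slc17a8 were at 0.152 ± 0.0103, 0.0965 ± 0.0142 and 0.314 ± 0.234 FPKM. Chat, for the enzyme that makes acetylcholine, was at 0.00355 ± 0.00502 FPKM, and Th, for the first enzyme of catecholamine synthesis, at 0.270 ± 0.0842 FPKM. These genes were chosen after their values were seen.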
